A study of Mus musculus with 3647 samples.

Results

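The genes described here are 6 of the 23420 genes in the deposited tables. They are the SK channel genes Kcnn1, Kcnn2 and Kcnn3 and the HCN channel genes Hcn2, Hcn3 and Hcn4, chosen by name as ion channel genes of the thalamic reticular nucleus (TRN), and all 6 were in every table. The study read the RNA of mouse brain nuclei, 1 nucleus per well of a sorting plate, and of TRN neurons sampled through a recording pipette (Patch-seq), and 2653 of its 3647 samples had values. Of these, 28.4% were TRN nuclei sorted with an antibody to the neuronal protein NeuN (8 plates), 26.2% TRN nuclei for which the sort used only a DNA dye (13 plates, called unselected here) and 9.05% nuclei of the thalamus and globus pallidus next to the TRN (4 plates). Nuclei sorted on GFP made up 16.6% from hippocampus (7 plates), 6.33% from M2 cortex (3 plates), 5.62% from the somatosensory area (2 plates) and 2.68% from striatum (1 plate), and the rest were 43 hippocampal nuclei without a sort label and 95 Patch-seq samples. The submitters describe the GFP-sorted nuclei as Pvalb-positive. In hippocampus, however, most of them fell in a cortical glutamatergic-like class in the clustering described below. Strain, genotype, sex and age are not given in the sources used here.

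SK channels are potassium channels that open when calcium binds the calmodulin held on each subunit, and they hyperpolarise the cell after calcium entry. HCN channels open on hyperpolarisation, pass sodium and potassium, and carry the inward current Ih, which cyclic AMP shifts to less negative voltages in HCN2 and HCN4. In TRN neurons, calcium entering through T-type channels during a burst opens SK2 channels, and the alternation supports the rhythmic bursting of sleep spindles. In thalamic relay neurons Ih contributes to rebound firing, with HCN2 and HCN4 as its main subunits.

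The pore is the stretch that makes each protein a channel, and the coding sequence of 5 members is shown because both families carry the same potassium channel filter signature there. The capitals mark the 3 codons of that signature, glycine-tyrosine-glycine. Each stretch is 60 bases of coding sequence within 1 exon, read 5′ to 3′ on the strand of the gene from GENCODE vM21 transcripts (GRCm38, the build called mm10).
Kcnn1, chr8:70850630-70850689, minus strand: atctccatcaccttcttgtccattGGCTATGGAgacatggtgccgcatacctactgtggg
Kcnn3, chr3:89645494-89645553, plus strand: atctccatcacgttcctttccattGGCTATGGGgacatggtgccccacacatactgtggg
Hcn2, chr10:79728935-79728994, plus strand: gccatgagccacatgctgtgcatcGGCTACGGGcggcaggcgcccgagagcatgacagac
Hcn3, chr3:89150979-89151038, minus strand: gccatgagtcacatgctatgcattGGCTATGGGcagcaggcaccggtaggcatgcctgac
Hcn4, chr9:58855567-58855626, plus strand: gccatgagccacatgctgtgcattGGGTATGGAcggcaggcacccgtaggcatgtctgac
Kcnn1 and Kcnn3 were identical at 53 of these 60 bases. Hcn2 was identical to Hcn3 at 48 bases and to Hcn4 at 50, and Hcn3 and Hcn4 at 53. An SK and an HCN stretch shared 26 to 28 bases. The stretch of Kcnn2 is not shown or compared here. Similar as the pores are, no 50-base word of any member's annotated transcripts occurred in the transcripts of another SK or HCN gene, so reads of that length could be told apart between members. Outside these families, 45 of the 4769 words of Kcnn1 (0.944%) occurred in transcripts of other genes.

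The genes lie on different chromosomes but for Kcnn3 and Hcn3. Kcnn1 (ENSMUSG00000002908.17) spans chr8:70842049-70863258, Kcnn3 (ENSMUSG00000000794.9) chr3:89520164-89675132, Hcn2 (ENSMUSG00000020331.9) chr10:79716634-79736108, Hcn3 (ENSMUSG00000028051.10) chr3:89146074-89160196 and Hcn4 (ENSMUSG00000032338.9) chr9:58823412-58863175. Kcnn2 (ENSMUSG00000054477.16) is on chromosome 18. Some exons are shared with a gene on the opposite strand: 17.1% of the exonic bases of Hcn3 with Pklr, then 3.8% and 4.33% of those of Kcnn2 with the antisense gene A330093E20Rik and the pseudogene AC121957.1, and 2.88% of those of Kcnn1 with A230052G05Rik. Whether reads were counted by strand is not stated, so reads in those bases cannot be assigned.

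Values are TPM, which correct for transcript length, so levels of different genes can be set side by side. Because no animal is named in the labels, a group is treated as 1 sample, and differences are given without a test or a p-value. Ranges over plates (plates with at least 5 nuclei of the class) show the spread between plates. Intervals on shares are exact binomial 95% intervals and cover counting error only. Read depth is unknown. In its place stands the number of detected genes (TPM over 0), with medians of 4983 in NeuN-selected, 2426 in unselected, 2469.5 in adjacent and 2889 to 5082 in the other nuclei, and 6654 in Patch-seq. Cell classes carry "-like" because they were rebuilt here by clustering, without the channel genes, and named from marker genes. Clusters that met no naming rule stayed unnamed (5.67% of TRN nuclei) and are in no class. Among these, 1 cluster of 51 nuclei had Gad1 in 96.1%, Six3 in 90.2% and Pvalb in 78.4%. It had 2 of the GABAergic markers in at least 50% of nuclei, where 3 were needed. Kcnn2 was found in 84.8% of its 46 nuclei from the TRN sorts, at a mean of 359.6 TPM. In TRN nuclei the 4 GABAergic markers summed to a mean of 3575 TPM in GABAergic-like and 68.8 TPM in thalamic glutamatergic-like nuclei, and the 7 thalamic relay markers to 161.3 and 4814 TPM. Clusters were named from these same markers, so the sums describe the classes and do not test their names. Among the GABAergic-like clusters, 1 was low in the TRN markers Pvalb (found in 14.9% of its nuclei) and Six3 (26.2%).

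Each member had its own distribution over the cell classes of the TRN. Kcnn2 was found in 77.9% of GABAergic-like nuclei (interval 74.8 to 80.8%), 47% of thalamic glutamatergic-like nuclei (39.9 to 54.2%), 31.2% of astrocyte-like nuclei (21.3 to 42.6%) and 1.33% of oligodendrocyte-like nuclei. Kcnn3 had the reverse order between the neurons, with 8.56% of GABAergic-like nuclei (6.69 to 10.7%), 81.8% of glutamatergic-like nuclei (75.7 to 86.9%), 13.8% of astrocyte-like and 1% of oligodendrocyte-like nuclei. Kcnn1 was found in 26.8% and 23.2% of GABAergic-like and glutamatergic-like nuclei, 12.5% of astrocyte-like and 7.67% of oligodendrocyte-like nuclei. The glial shares come from shallower nuclei, with medians of 1989 detected genes in unselected oligodendrocyte-like and 2159 in unselected astrocyte-like nuclei, against 4812 in GABAergic-like and 4982.5 in glutamatergic-like nuclei.

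**Figure D1:**
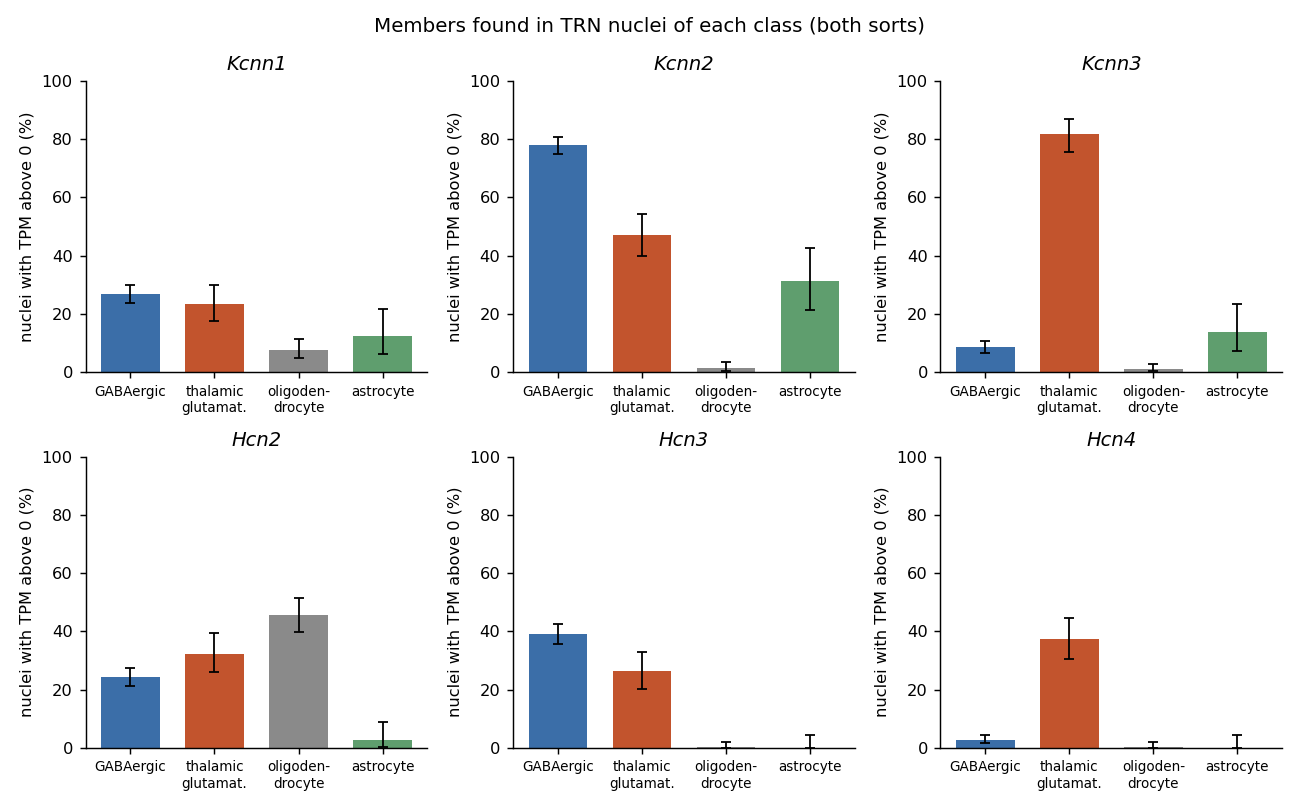
Share of TRN nuclei with TPM above 0 for each member, by rebuilt cell class, over GABAergic-like (54.1% of 1447 nuclei), thalamic glutamatergic-like (13.7%), oligodendrocyte-like (20.7%) and astrocyte-like nuclei (5.53%) of both sorts. Bars are shares and error bars exact binomial 95% intervals. Kcnn2 peaks in GABAergic-like nuclei, Kcnn3 and Hcn4 in glutamatergic-like nuclei, and Hcn2 in oligodendrocyte-like nuclei.

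The HCN genes differed just as much. Hcn4 was found in 2.81% of GABAergic-like nuclei and 37.4% of glutamatergic-like nuclei, and Hcn3 in 39% and 26.3%. Neither Hcn3 nor Hcn4 was found in any of the 80 astrocyte-like nuclei (exact interval up to 4.51%), and each was found in 0.333% of oligodendrocyte-like nuclei. In adjacent tissue Hcn3 was found in 2 of 43 astrocyte-like nuclei (4.65%). These classes had fewer detected genes than the neurons. Hcn2 was found most often in oligodendrocyte-like nuclei, at 45.7% (39.9 to 51.5%), against 24.3% in GABAergic-like, 32.3% in glutamatergic-like and 2.5% in astrocyte-like nuclei.

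Hcn2 also had its highest mean in oligodendrocyte-like nuclei. The mean there was 57.3 TPM, with plates at a lowest of 10.5, a median of 52.8 and a highest of 182.01 TPM, against 9.69 TPM in GABAergic-like nuclei, whose plates had 0.372, 7 and 45.7 TPM. The ranges overlap, but the median oligodendrocyte-like plate lies above the highest GABAergic-like one. Oligodendrocyte-like nuclei of the adjacent tissue gave nearly the same Hcn2 values, 51.4 TPM and 38.3% of 94 nuclei, and the adjacent GABAergic-like nuclei 20.6 TPM and 21.4% of 42. Astrocyte-like nuclei had a high Kcnn2 mean of 274.6 TPM (plates 3.84, 193.6 and 723.5 TPM), which lay within the range of the GABAergic-like plates, although fewer than 1 in 3 of these nuclei had the gene. In adjacent tissue Kcnn2 was found in 48.8% of 43 astrocyte-like nuclei, with a mean of 340 TPM.

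The comparison of GABAergic-like with thalamic glutamatergic-like nuclei asks which channel genes separate the inhibitory neurons of the TRN from relay-type neurons sorted from the same dissections. It set 54.1% of the 1447 TRN nuclei against 13.7%. A gene counted as higher or lower where the log2 ratio of mean TPM, each with 1 TPM added, was at least 1 (a 2-fold difference) or at most -1. Of the 6 members, all of which passed a filter of 5% mean detection, 1 was at least 2-fold higher and 2 at least 2-fold lower in GABAergic-like nuclei. Among the 12641 genes that passed the filter, 8.06% were higher and 9.09% lower by that measure, 17.2% in all. The median log2 ratio was -0.27 over the members and -0.01 over all those genes.

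Kcnn2, the SK2 gene, was the member that was higher in GABAergic-like nuclei. Its plate means there were 79.8 TPM at the lowest, 318.1 at the median and 491.8 at the highest of 21 plates, against 5.12, 69.8 and 211.7 TPM over 14 plates of glutamatergic-like nuclei. The 2 ranges overlap, yet on each of the 14 plates that held both classes GABAergic-like nuclei had the higher mean. The overall means were 335.1 and 80.4 TPM, a log2 ratio of 2.04, and the within-plate ratios ran from 1.07 to 5.38. Part of the difference was in detection and part in level: nuclei with the transcript had a median of 347.9 TPM in the GABAergic-like and 143.5 TPM in the glutamatergic-like class. The antisense gene A330093E20Rik was found in 16.3% of GABAergic-like and 3.54% of glutamatergic-like nuclei, and among nuclei without it Kcnn2 averaged 303.8 and 77.1 TPM, a log2 ratio of 1.96.

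Kcnn3, the SK3 gene, was lower in GABAergic-like nuclei and its plates did not overlap. GABAergic-like plates had 0 TPM at the lowest, 1.69 at the median and 19.6 at the highest, against 23.1, 56.5 and 160 TPM for glutamatergic-like plates. The means were 4.29 and 78.6 TPM, a log2 ratio of -3.91, with GABAergic-like nuclei lower on 14 of 14 plates (-7.33 to -2.86). Neither plate overlap nor direction by plate was counted over all genes that passed the filter, here or in later comparisons. How unusual either is was therefore not tested. The mean in GABAergic-like nuclei rested on few of them, since the 5 highest nuclei carried 31.8% of the summed Kcnn3 TPM. Kcnn1, the SK1 gene, was at 24.4 TPM in GABAergic-like and 21.1 TPM in glutamatergic-like nuclei, a log2 ratio of 0.20. It was higher in GABAergic-like nuclei on 8 of 14 plates, and its within-plate ratios ran from -1.54 to 4.36, so no direction held.

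**Figure D2:**
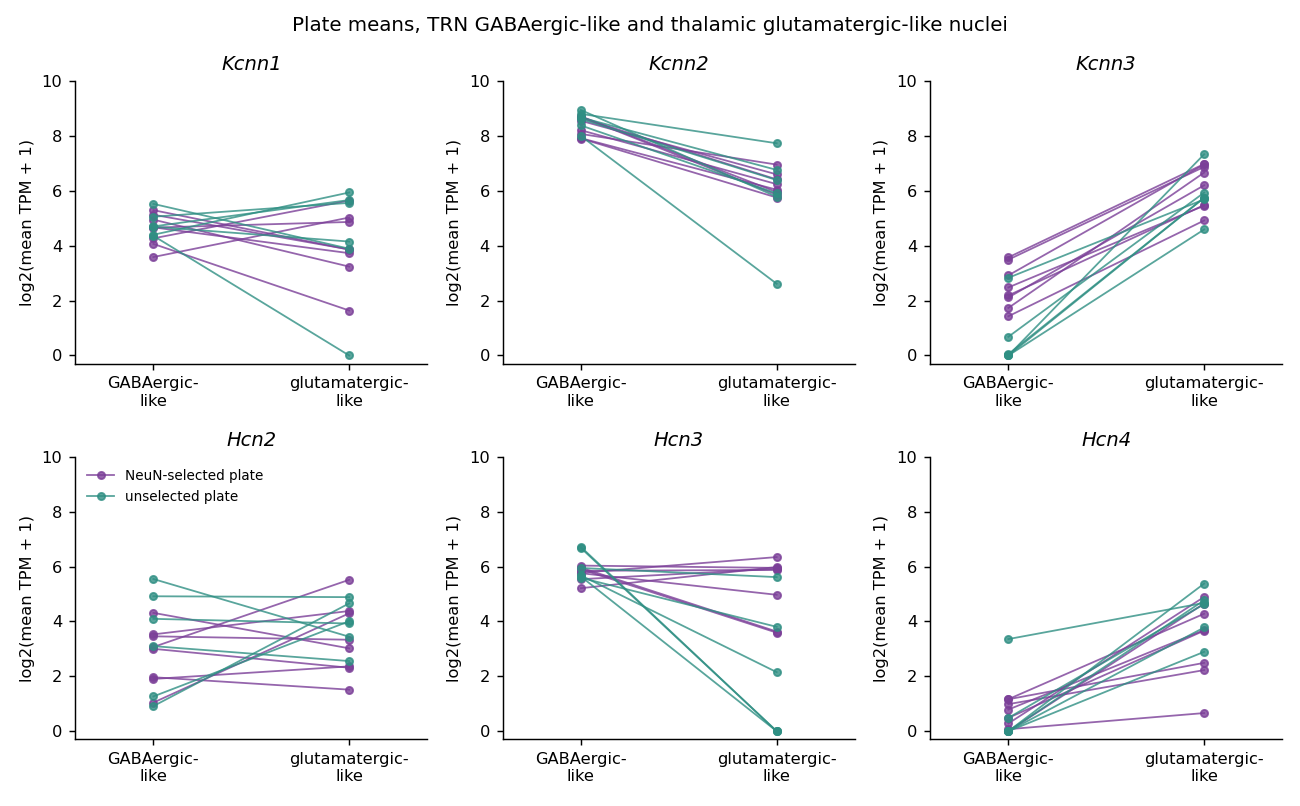
Mean TPM (as log2 of the mean plus 1) of each member in GABAergic-like (left) and thalamic glutamatergic-like nuclei (right) of the 14 TRN plates with at least 5 nuclei of both; each line is a plate, coloured by sort. All 14 lines fall from left to right for Kcnn2 and climb for Kcnn3 and Hcn4, while those of Kcnn1 and Hcn2 cross.

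Among HCN genes, Hcn4, which encodes a slowly activating and strongly cyclic AMP-sensitive channel, was lower in GABAergic-like nuclei. Its plate means were 0 TPM at the lowest, 0.0518 at the median and 9.24 at the highest, against 0.58, 15.6 and 40.6 TPM in glutamatergic-like nuclei. The ranges overlap, and the within-plate ratio was below 0 on all 14 plates (-5.38 to -0.59). The means were 0.667 and 15.1 TPM, a log2 ratio of -3.27. Only 22 GABAergic-like nuclei had Hcn4, and 5 of them carried 67.2% of its summed TPM.

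Hcn2 and Hcn3 were not past 2-fold, although each passed it under 1 alternative. Hcn2, whose channel also responds to cyclic AMP, averaged 9.69 TPM in GABAergic-like and 16.9 TPM in glutamatergic-like nuclei, a log2 ratio of -0.75, with 8 of 14 plates higher in GABAergic-like nuclei and a within-plate range of -3.74 to 2.10. With classes drawn from marker gates its ratio was -1.002. Hcn3, the member of the family that responds little to cyclic AMP, averaged 55.1 and 36.4 TPM, a log2 ratio of 0.58, with 10 of 14 plates higher (-0.77 to 6.71). Its ratio was 1.94 over unselected plates alone and 0.24 over NeuN-selected plates alone. Pklr, which shares exonic bases with Hcn3, was found in 0.766% of GABAergic-like and 0.505% of glutamatergic-like nuclei.

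Added up within each nucleus, the 3 SK genes averaged 363.8 TPM in GABAergic-like and 180.2 TPM in glutamatergic-like nuclei, and Kcnn2 made up 92.1% and 44.6% of those sums. The 3 HCN genes summed to nearly equal means of 65.5 and 68.5 TPM. The SK sums thus differed in size and make-up, and the HCN sums mainly in make-up. Kcnma1, the large-conductance calcium-activated potassium channel gene, was at 192.998 and 190.9 TPM. Kcnn4, the remaining gene of the calcium-activated family, did not pass the filter.

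Genes that supply calcium to SK channels or bind them were listed together with the members. Of 14 genes for calcium channels, release channels and pumps, 13 passed the filter, 3 were at least 2-fold higher and 4 lower in GABAergic-like nuclei, with a median log2 ratio of -0.72. The T-type channel genes Cacna1i (49.7 against 2.01 TPM, log2 ratio 4.07) and Cacna1h (42.4 against 1.83 TPM, 3.94) and the ryanodine receptor gene Ryr2 (38.7 against 3.59 TPM, 3.11) were higher on 14 of 14 plates, as Kcnn2 was. How often genes outside these lists were higher on every plate was not counted. Of 11 genes of the SK complex, 1 was higher and 2 lower, with a median of -0.27. The higher one was Actn2, the actin-binding protein that anchors SK2 (50.1 against 3.36 TPM, 3.55). The lower ones were Ppp2cb, a catalytic subunit of protein phosphatase 2A (29.1 against 71.4 TPM, -1.27), and Csnk2a2, a catalytic subunit of casein kinase 2 (8.32 against 20.3 TPM, -1.19), enzymes that set the calcium sensitivity of SK2.

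Of 8 genes for proteins that bind HCN channels, 5 passed the filter, none was at least 2-fold higher and 3 were lower in GABAergic-like nuclei, with a median log2 ratio of -1.82. They were Mrvi1 (2.48 against 34.4 TPM, -3.34), the ubiquitin ligase gene Nedd4l (17 against 75.4 TPM, -2.09) and Pex5l, which encodes the HCN trafficking subunit TRIP8b (4.6 against 18.7 TPM, -1.82). Of 17 genes that make or break down cyclic nucleotides, 16 passed, 3 were higher and 3 lower, with a median of 0.02. The guanylate cyclase subunit gene Gucy1a3 (84.5 against 3.54 TPM, 4.24), the calcium-stimulated phosphodiesterase gene Pde1a (21.8 against 2.71 TPM, 2.62) and the adenylate cyclase gene Adcy2 (79.8 against 15.2 TPM, 2.32) were higher in GABAergic-like nuclei.

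Within the TRN, nuclei with Spp1 but not Ecel1 were compared with nuclei with Ecel1 but not Spp1, the genes that mark opposite ends of the molecular range of reticular neurons. Spp1-only GABAergic-like nuclei were 17.6% and Ecel1-only ones 18.9% of the 1447 TRN nuclei. Of the 6 members, 1 was at least 2-fold higher and 2 lower in Spp1-only nuclei, of which Hcn4 did not pass the 5% filter. Among all 12468 genes that did, 5.21% were higher and 6.18% lower (11.4% in all), and the median log2 ratio was 0.03, against -0.52 over the 6 members and -0.08 over the 5 that passed the filter. Spp1-only nuclei had more detected genes, a median of 5271 against 4618.5, and 1.18% of them (3 nuclei) came from the cluster low in Pvalb and Six3, against 21.5% of Ecel1-only nuclei (59).

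Kcnn1 was higher in Spp1-only nuclei. Its plate means were 7.68 TPM at the lowest, 42.2 at the median and 133.9 at the highest of 15 plates, against 0, 9.53 and 73.6 TPM over 19 plates of Ecel1-only nuclei, and the ranges overlap. The means were 37.4 and 15.6 TPM, a log2 ratio of 1.21, and the gene was found in 39.2% of Spp1-only (33.2 to 45.5%) and 18.2% of Ecel1-only nuclei (13.9 to 23.3%). The mean was higher in Spp1-only nuclei on 11 of 15 plates and the share on 14 of 15. Detection of Kcnn1 moved with detected genes, at 17.1% in the lowest and 43.5% in the highest quartile of all GABAergic-like nuclei. With both groups averaged over quartiles of detected genes the ratio was 1.30.

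Kcnn2 was found in 92.2% of Spp1-only nuclei (88.1 to 95.1%) and 69% of Ecel1-only nuclei (63.1 to 74.4%). Its plate means were 211.3 TPM at the lowest, 427.3 at the median and 754.7 at the highest in Spp1-only nuclei, against 153.2, 274.9 and 512.5 TPM in Ecel1-only nuclei. The ranges overlap, and Spp1-only nuclei were higher on 12 of 15 plates. The means of 424.2 and 269.1 TPM gave a log2 ratio of 0.66, below the 2-fold mark, and the ratio was 0.38 without the cluster low in Pvalb and Six3. As a difference of mean log2 values over nuclei, which weighs detection more, it was 2.28.

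Kcnn3 and Hcn4, both low in the TRN, were lower still in Spp1-only nuclei. Kcnn3 was found in 8 Spp1-only nuclei (3.14%, 1.36 to 6.09%) and 35 Ecel1-only nuclei (12.8%, 9.06 to 17.3%), with means of 1.45 and 5.93 TPM and a log2 ratio of -1.50. Its median plate was at 0 TPM for Spp1-only and 2.80 TPM for Ecel1-only nuclei, and of the 15 plates 9 were lower in Spp1-only nuclei, 1 was higher and 5 had 0 TPM in both. The Spp1-only mean rested on a few nuclei, the 5 highest of which held 97.7% of it, and the ratio was -0.48 with 10 TPM added to both means and -2.59 with classes drawn from marker gates. The thalamic glutamatergic markers summed to 107.8 TPM in Spp1-only and 175.4 TPM in Ecel1-only nuclei, with 3 of 7 at least 2-fold lower and 1 higher, and their part in the values was not tested. Hcn4 was found in 1 Spp1-only nucleus (0.392%) and 12 Ecel1-only nuclei (4.38%), with means of 0.0333 and 1.45 TPM and a log2 ratio of -1.24. That ratio was -0.39 without the cluster low in Pvalb and Six3 and -0.88 without plate X012116TRNp7.

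Hcn3 averaged 38.2 TPM in Spp1-only and 75.2 TPM in Ecel1-only nuclei. The log2 ratio of -0.96 lay just under the 2-fold mark, and it lay between -1.01 and -1.11 when plate X102816NP2, X102816NP3, X102816_TRNpA or X102816_TRNpB was left out. Its plate means were 0 TPM at the lowest, 29.6 at the median and 137.5 at the highest in Spp1-only nuclei, against 19.2, 66.1 and 280.7 TPM in Ecel1-only nuclei. Spp1-only nuclei were lower on 12 of 15 plates. Detection differed less than level: 40.4% of Spp1-only and 45.3% of Ecel1-only nuclei had the gene, with medians among those of 47.1 and 109.04 TPM. Hcn2 averaged 9.7 and 10.3 TPM, a log2 ratio of -0.08, and was higher in Spp1-only nuclei on 9 of 15 plates.

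**Figure D3:**
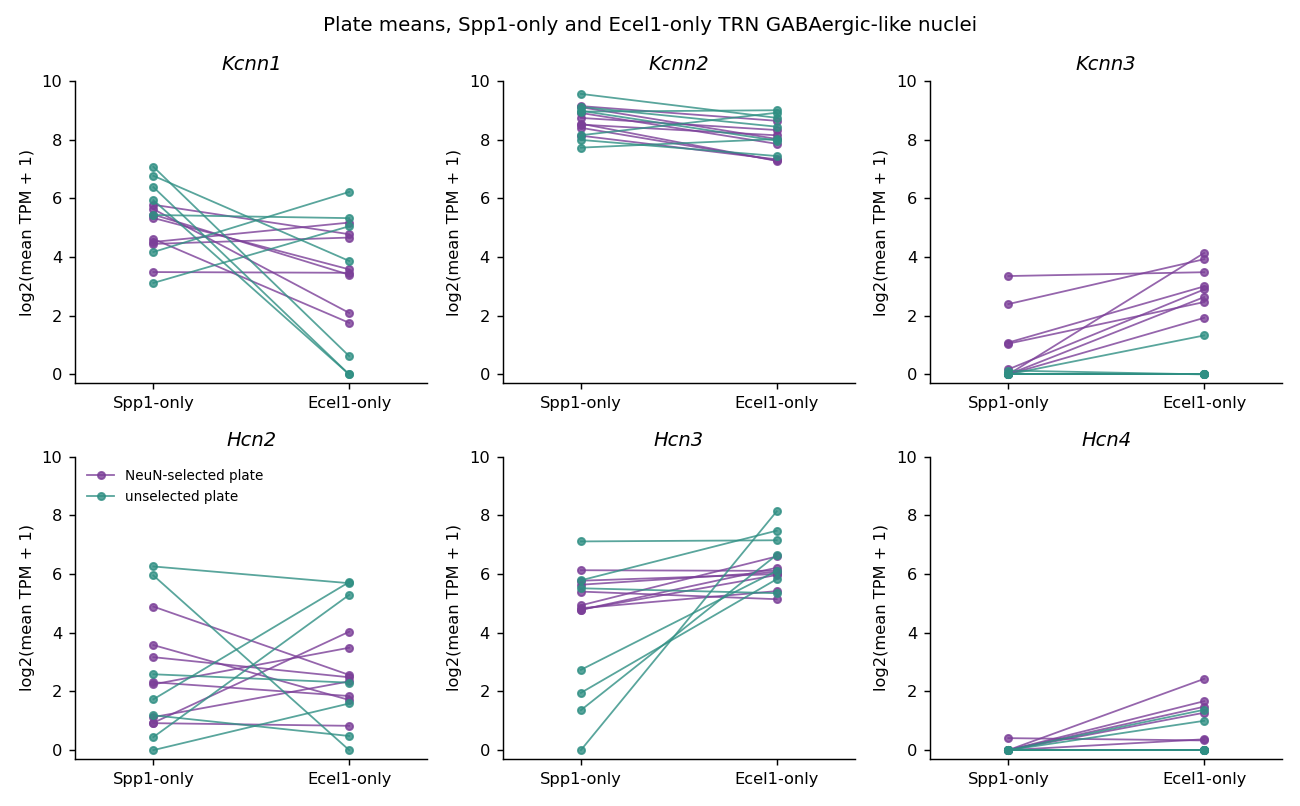
Mean TPM (as log2 of the mean plus 1) of each member in Spp1-only (left) and Ecel1-only (right) GABAergic-like nuclei of the 15 TRN plates with at least 5 nuclei of both; each line is a plate, coloured by sort. Kcnn2 is high at both ends with a drop on 12 plates, Hcn3 climbs on 12 plates, and the median Spp1-only plate is at 0 TPM for Kcnn3 and Hcn4, with the highest at 9.22 TPM for Kcnn3.

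The calcium source genes split in this comparison as well. Of the 13 that passed the filter, 2 were higher and 3 lower in Spp1-only nuclei, with a median log2 ratio of -0.13. The T-type gene Cacna1h was higher (83 against 19.9 TPM, log2 ratio 2.00, 15 of 15 plates), whereas the T-type gene Cacna1g (5.41 against 34.9 TPM, -2.48) and the R-type gene Cacna1e (4.41 against 31.5 TPM, -2.59) were lower. In the SK complex list Actn2 was higher (75.5 against 37.1 TPM, 1.01) and the other 10 of 11 genes stayed within 2-fold, with a median of -0.16 over the list. Of 4 HCN partners past the filter, Nedd4l was lower (6.97 against 20.7 TPM, -1.44). Of 16 cyclic nucleotide genes 4 were lower and none higher, among them the phosphodiesterase genes Pde1a (2.62 against 30.6 TPM, -3.13), Pde2a (11.7 against 52.3 TPM, -2.07) and Pde1b (27 against 75.8 TPM, -1.46), with a list median of 0.08.

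Kcnn2 was also common in the GABAergic-like nuclei outside these 2 sets. The 37 GABAergic-like nuclei with both Spp1 and Ecel1 had Kcnn2 in 94.6% of nuclei at a mean of 550 TPM, and nuclei with neither (27.7% of GABAergic-like nuclei) had it in 69.6% at 277.1 TPM. By cluster, Kcnn2 ran from 95.1% and 511.8 TPM to 41.5% and 73.2 TPM. The lowest values were those of the cluster low in Pvalb and Six3 (17.2% of TRN GABAergic-like nuclei), and since clusters were made from the same nuclei these are descriptions. Those nuclei also had Kcnn3 in 23.7% and Hcn4 in 11.1%, against 5.4% and 1.08% in the other GABAergic-like nuclei.

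The next comparison asks how GABAergic-like nuclei of the TRN differ from GFP-sorted GABAergic-like nuclei elsewhere. It set the TRN mean against the mean of 4 regional means, from 99 nuclei of hippocampus, 100 of M2 cortex, 120 of the somatosensory area and 14 of striatum. The regions come from another table, sort and set of plates, which cannot be told apart from tissue. Of the 6 members, 2 were at least 2-fold higher in the TRN and none lower, and Hcn4 did not pass the filter. Among the 12590 genes that did, 8.84% were higher and 11.8% lower (20.6% in all), and the median log2 ratio was -0.14, against 0.14 over the 6 members and -0.18 over the 5 that passed the filter.

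Kcnn2 averaged 335.1 TPM in the TRN. Among the GFP-sorted regions its mean was highest in the 14 striatal nuclei (219.2 TPM), then M2 cortex (142.998 TPM), hippocampus (116.8 TPM) and the somatosensory area (95.7 TPM). The log2 ratio to the mean of the regions was 1.22. Plate means of the NeuN-selected TRN nuclei ran from 238.9 to 419.03 TPM and those of unselected ones from 79.8 to 491.8 TPM, while GFP-sorted plates ran from 43.1 to 244.3 TPM, so the ranges overlap. Adjacent GABAergic-like nuclei, at 306.3 TPM, lay within the TRN range and next in order. The plate ranges of M2 cortex (93.3 to 200.5 TPM), hippocampus (43.1 to 244.3 TPM) and the somatosensory area (84.1 to 107.7 TPM) overlapped one another.

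The Kcnn1 mean was 24.4 TPM for the TRN and 22.8 TPM for adjacent nuclei. In GFP-sorted nuclei it was at 14.1 TPM (hippocampus), 13.6 TPM (M2), 11.3 TPM (somatosensory) and 1.7 TPM (striatum). The log2 ratio to the mean of the regions was 1.18, and 0.86 without the striatal plate. Hippocampal plates alone ran from 0 to 43.6 TPM, nearly the range of TRN plates (0.204 to 45 TPM). The Kcnn3 mean was 4.29 TPM for the TRN and 7.87 TPM for adjacent nuclei, against 18.3 TPM for striatum, 1.37 for M2, 0.15 for somatosensory and 0.0897 TPM for hippocampal nuclei. Its log2 ratio of -0.18 turned to 1.78 without striatum, whose 14 nuclei come from 1 plate that also held striatal projection-like nuclei with Kcnn3 at 74.9 TPM. The thalamic glutamatergic markers summed to 161.3 TPM in TRN and 71.7 TPM in GFP-sorted GABAergic-like nuclei, and their part in the values was not tested.

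Hcn2, Hcn3 and Hcn4 were not past 2-fold between the TRN and the mean of the regions. Hcn3 averaged 55.1 TPM in the TRN, against 148.8 TPM in striatum, 91.6 in hippocampus, 76.8 in the somatosensory area and 60.9 TPM in M2 cortex, a log2 ratio of -0.77. Hcn2 averaged 9.69 TPM in the TRN, against 9.17, 7.89, 20.3 and 10.1 TPM in the same regions, a log2 ratio of -0.26. Hcn4 was below 1 TPM in all of them, and its log2 ratio of 0.45 was 1.27 with a pseudocount of 0.1 TPM and -0.06 without the cluster low in Pvalb and Six3.

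**Figure D4:**
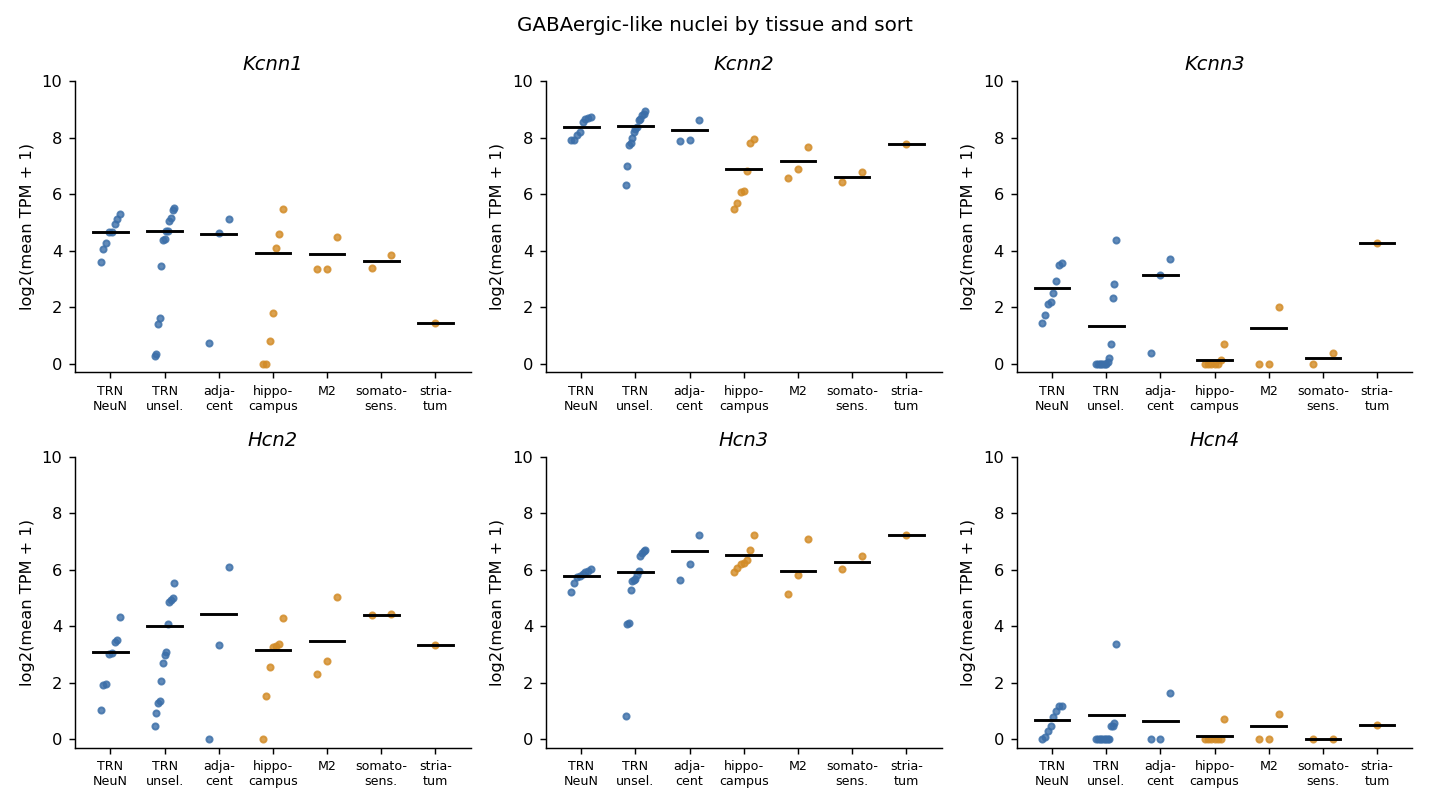
Plate means of each member in GABAergic-like nuclei (points, log2 of mean TPM plus 1) by tissue and sort, TRN and adjacent tissue on the left (blue) and GFP-sorted regions on the right (orange); black lines are means over all nuclei of a group. Group means of Kcnn2 lie above 300 TPM in the TRN and adjacent groups and at 95.7 to 219.2 TPM in the GFP-sorted groups. Its plate means overlap, at 79.8 to 491.8 TPM in the TRN and 43.1 to 244.3 TPM in the GFP-sorted groups.

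Of the listed partner genes in this comparison, Cacna1i was higher in the TRN (49.7 against 6.63 TPM, log2 ratio 2.73), and the calcium channel gene Cacna1a (30.7 against 82.9 TPM, -1.40) and the ryanodine receptor gene Ryr1 (1.02 against 15.6 TPM, -3.04) were lower. Over all 14 calcium source genes 3 were higher and 3 lower, with a median of 0.04 over the 13 that passed. In the SK complex list 4 of 11 genes were higher and none lower, with a median of 0.70. Among these were the phosphatase 2A genes Ppp2r1a (742.5 against 272.95 TPM, 1.44), Ppp2cb (29.1 against 10.7 TPM, 1.36) and Ppp2ca (133.5 against 53 TPM, 1.32). Of the 4 HCN partners that passed, 1 was lower and none higher, with a median of -0.80. Of 17 cyclic nucleotide genes 6 were higher and 2 lower, with a median of 0.63, and Pde2a was among the lower ones (31.7 against 257.7 TPM, -2.98).

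Shares over whole groups mix all classes of a sort. NeuN-selected and unselected nuclei also differed in detected genes (medians of 4983 and 2426) and in plates. The part of each in the shares was not tested. The share of nuclei with Kcnn2 was 72.2% after NeuN selection (68.9 to 75.4%) and 33% without it (29.5 to 36.6%), and GABAergic-like nuclei were 74.5% and 32% of those sorts. Outside the TRN the share with Kcnn2 was 45.2% in GFP-sorted and 44.2% in unlabelled hippocampal nuclei, 44% in M2, 33.6% in somatosensory, 33.3% in adjacent and 16.9% in striatal nuclei. Within GFP-sorted hippocampus it was 56.6% in cortical glutamatergic-like and 42.4% in GABAergic-like nuclei. In the clusters of GFP-sorted and unlabelled nuclei, Pvalb was found in 1.9 to 15.9% of nuclei where these were cortical glutamatergic-like. It was found in 64.6 to 86.7% where they were GABAergic-like. The whole-group GFP shares are therefore not those of nuclei with Pvalb alone. Kcnn3 was found in 24.3% of NeuN-selected, 9.37% of unselected and 21.7% of adjacent nuclei, and in 36.6% of striatal nuclei, its highest group. Hcn2 was found in 22.8% of NeuN-selected nuclei and in 33.7% of unselected nuclei, of which 42.7% were oligodendrocyte-like. Hcn3 was found in 38.1% and 13.3%, Hcn4 in 8.63% and 4.76%, and Kcnn1 in 26.6% and 14.7% of NeuN-selected and unselected nuclei.

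Among GABAergic-like nuclei alone, NeuN selection left most members within 2-fold. Of the 6 members 1 was at least 2-fold higher in NeuN-selected than in unselected nuclei and none lower. Among 12339 genes 4.83% were higher and 2.1% lower (6.93% in all), and the median log2 ratio was 0.07, against -0.08 over the members. Kcnn2 averaged 333.99 and 337.9 TPM (-0.02), Kcnn1 24.2 and 24.7 TPM (-0.03) and Hcn3 53.5 and 59.2 TPM (-0.14). The member called was Kcnn3, at 5.39 and 1.49 TPM (1.36), whose plates overlapped (1.69 to 10.9 and 0 to 19.6 TPM), and as a mean of plate means its ratio was 0.94. The 7 thalamic glutamatergic markers summed to 177.9 TPM in NeuN-selected and 119.5 TPM in unselected nuclei, with 5 of 7 at least 2-fold higher, and the 8 oligodendrocyte markers to 1194.2 and 395.4 TPM, with 6 of 8 higher, and their part in these values was not tested. Hcn2 averaged 7.54 and 15.1 TPM (-0.92), and the ratio fell to between -1.02 and -1.24 when plate X012116TRNp9, X012116_1TRNp2, X102816NP4 or trn_10 was left out. The 2 sorts were made on different plates, so sort and plate set cannot be told apart.

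Patch-seq samples hold RNA drawn from the cell rather than from a sorted nucleus. In the 95 Patch-seq samples none of the 6 members was 2-fold higher or lower than in NeuN-selected GABAergic-like nuclei. Among 13994 genes 6.22% were higher and 27.9% lower (34.1% in all), and the median log2 ratio was -0.57, against -0.62 over the members. Kcnn2 averaged 222.04 and 333.99 TPM (-0.59), Kcnn1 14 and 24.2 TPM (-0.75), Hcn3 33.8 and 53.5 TPM (-0.65), Kcnn3 2.21 and 5.39 TPM (-0.99), Hcn2 7.1 and 7.54 TPM (-0.08) and Hcn4 0.834 and 0.607 TPM (0.19). Detection was higher in Patch-seq for some of the same genes: Hcn2 was found in 42.1% and 21.4%, and Kcnn1 in 46.3% and 28%. The 8 microglial markers summed to 1205.1 TPM in Patch-seq and 42.6 TPM in nuclei, with 8 of 8 at least 2-fold higher. The 8 oligodendrocyte markers summed to 5241 and 1194.2 TPM, but 2 were at least 2-fold higher and 2 lower. The 4 GABAergic ones summed to 2036 and 3833 TPM, with 1 higher and 1 lower by that measure. The part of these markers in the member values, Hcn2 among them, was not tested. Patch-seq samples were put in name batches, 7 and 34 samples by a shared name prefix. The other 54, whose names have several forms, are a remainder that may hold more than 1 batch. Medians of detected genes were 7818 in the batch of 7, 9107.5 in that of 34 and 5548.5 in the remainder of 54. Kcnn1 was found in 42.9%, 76.5% and 27.8% of them.

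The Spp1 and Ecel1 comparison was made again in Patch-seq samples, 32 with Spp1 alone and 26 with Ecel1 alone. Of the 6 members 1 was at least 2-fold higher and 1 lower in Spp1-only samples, in a comparison where 13.4% of 15438 genes were higher and 16.5% lower (29.9% in all). Kcnn1 ran from 0 TPM through a median of 3 to 204.9 TPM in Spp1-only samples, against 0, 0 and 25.4 TPM in Ecel1-only samples. It was found in 65.6% (46.8 to 81.4%) and 38.5% (20.2 to 59.4%) of them, with means of 27.1 and 2.15 TPM and a log2 ratio of 3.16. The ratio was 2.78 within the batch of 34, 4.74 within the remainder of 54 and 1.84 without that remainder. Only those 2 sets had at least 5 samples of both kinds.

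Kcnn3 was the lower member, found in 3 of 32 Spp1-only and 9 of 26 Ecel1-only samples. Its highest value was 1.03 TPM in Spp1-only and 20.3 TPM in Ecel1-only samples. Its means of 0.0509 and 3.47 TPM gave a log2 ratio of -2.09 (-2.29 within the batch of 34, -2.07 within the remainder of 54). The thalamic glutamatergic markers summed to 33.7 TPM in Spp1-only and 97.9 TPM in Ecel1-only samples, with 5 of 7 at least 2-fold lower, and the oligodendrocyte markers to 3703 and 2353 TPM, and their part in the member values was not tested. Kcnn2 had nearly equal means of 230.1 and 228.9 TPM (0.01), where nuclei had given 0.66; whether the 2 assays differ in this was not tested. Hcn3 averaged 35.8 and 45.4 TPM (-0.33), and Hcn2 8.79 and 5.2 TPM (0.66, and 1.24 without the batch of 34). Hcn4 averaged 1.11 and 0.391 TPM (0.60). Of the 14 calcium source genes 2 were higher and 5 lower, with a median of -0.30. Cacna1h was again higher (69.4 against 15.1 TPM, 2.13) and Cacna1g (0.211 against 21.7 TPM, -4.23) and Cacna1e (0.982 against 24.4 TPM, -3.68) lower in Spp1-only samples.

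**Figure D5:**
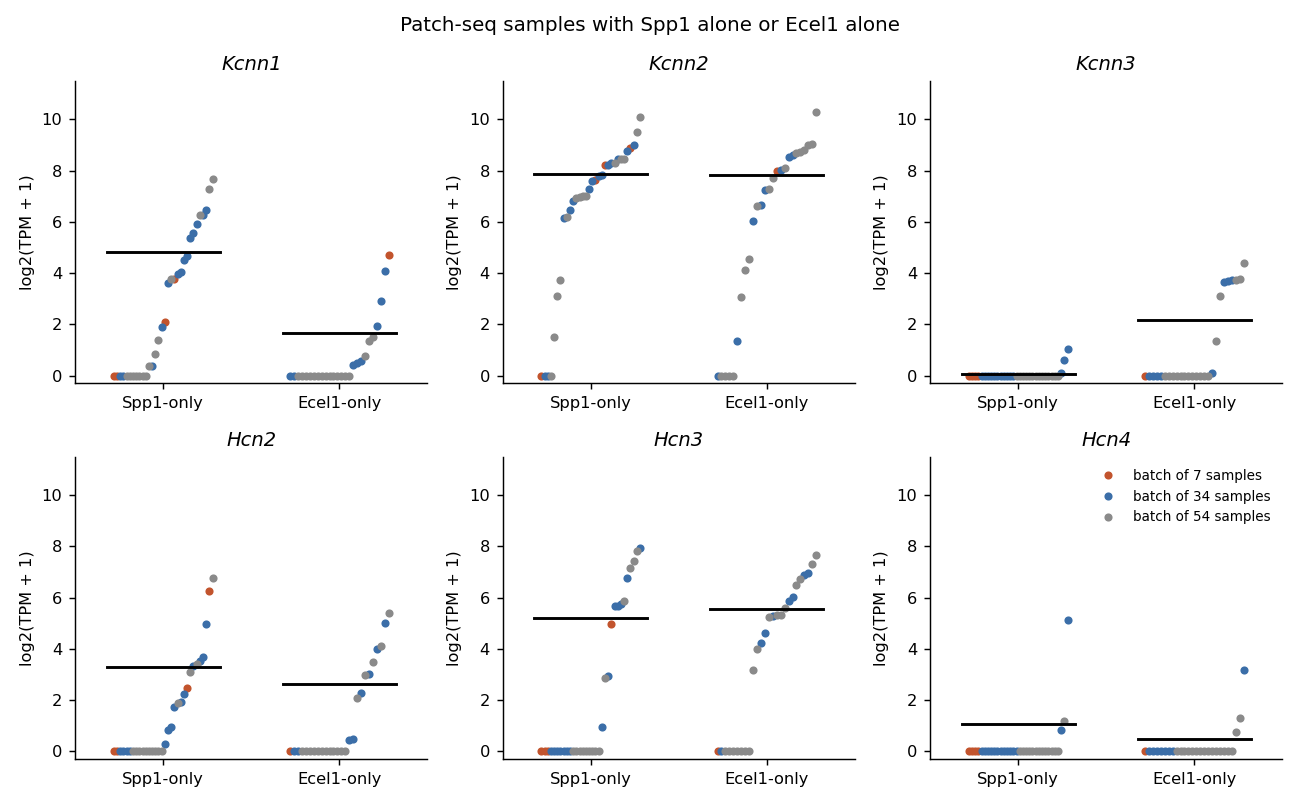
TPM of each member (as log2 of TPM plus 1) in every Patch-seq sample with Spp1 alone (32, left) or Ecel1 alone (26, right). Points are samples in order of value, coloured by name batch, and black lines are group means. The set of 54 is a remainder with several forms of name. Kcnn1 has a longer upper range and Kcnn3 a shorter one in Spp1-only samples, and Kcnn2 has equal means.

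Few members were found together in a nucleus. GABAergic-like nuclei of the TRN had a median of 2 members, glutamatergic-like nuclei 2.5 and GFP-sorted GABAergic-like nuclei 1. At least 1 SK gene was found in 84.5% and at least 1 HCN gene in 54.8% of TRN GABAergic-like nuclei, and both kinds in 46.7%. In glutamatergic-like nuclei the shares were 92.4%, 71.7% and 66.2%. At least 2 SK genes were found in 27.5% of GABAergic-like and 54% of glutamatergic-like nuclei, and 78 glutamatergic-like nuclei had Kcnn2 with Kcnn3. In GABAergic-like nuclei Kcnn3 was found in 6.89% of those with Kcnn2 and 14.5% of those without it. Nuclei with Kcnn2 had more detected genes, a median of 4944 against 4229. The cluster low in Pvalb and Six3 had Kcnn2 in 41.5% of nuclei, against 85.5% of the other GABAergic-like nuclei, and had Kcnn3 more often than they did. The part of that cluster in the split was not tested.

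Other genes had similar profiles over the 17 combinations of class and group with at least 20 nuclei. By Pearson correlation of log2 mean TPM over these profiles, which share libraries and plates, the closest of 14074 genes to Kcnn2 were Drp2 (0.96) and Astn1 (0.95). For Kcnn3 they were Vav3 (0.92) and Pde7b (0.90), for Kcnn1 Tmem218 (0.86) and Itga6 (0.77), for Hcn2 Cdc42ep2 (0.95) and Ankrd44 (0.93), for Hcn3 Tcea2 (0.96) and Ccdc65 (0.94), and for Hcn4 Iltifb (0.99) and Wnt9b (0.98). These are the highest of many correlations and describe likeness only.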

How the data were processed

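Per the labels' protocols, libraries were made from sorted nuclei with a form of SMARTseq2. Per the submitters' processing notes, RSEM, Bowtie, TopHat2 2.0.10, Seurat 2.2.0 and the build mm10 were used, in no stated order. The authors deposited TPM for the nuclei outside the TRN and for Patch-seq, and the natural log of 1 plus scaled TPM for the TRN table. The plan had assumed TPM throughout. The logarithm was undone and each TRN column rescaled to 1000000, after which 236907 of 236907 checked values lay within 0.1 steps of a multiple of 0.01 TPM. Of 3647 samples, 994 had no values. Read depth is unknown.

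Each table was clustered separately with Python 3.11.15, scikit-learn 1.9.0 and igraph 0.11.9: log2 of TPM plus 1, 2000 variable genes without the channel lists, 30 principal components, 15 neighbours and Leiden clustering at resolution 1, keeping the best of 20 starts. Clusters were named by the markers detected in 50% or more of their nuclei. GABAergic-like clusters needed 3 of 4 markers and thalamic glutamatergic-like ones 3 of 7 with Slc17a6, thresholds set after marker shares were seen. No doublet caller was run. Log2 ratios of mean TPM used a pseudocount of 1 TPM. They were tested on simulated data between the neuron classes and between Spp1-only and Ecel1-only nuclei, for often detected genes only. Hcn4, and Kcnn3 between Spp1-only and Ecel1-only nuclei, were found too rarely to be covered by that test. The members, lists and comparisons were chosen with earlier results of these data known. Named partner genes were up to 3 per list and comparison with the largest absolute ratio past the filter of 5% mean detection, and 2 genes of similar profile per member. Alternatives were other pseudocounts, mean log2 values, plate means, other class definitions, each sort alone and leaving out each plate or batch. Leaving out the cluster low in Pvalb and Six3, the striatum, nuclei with A330093E20Rik or shallow Patch-seq samples was chosen after seeing the data.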

Additional observations from a re-analysis of the deposited data

Results flagged for a closer look

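Of 30 sets of plate means (6 to 8 plates each), 6 had a highest plate standing apart from the others by Dixon's test. The test's rate of about 1 flag in 20 sets is for normally distributed values. Several sets here hold plates at 0 TPM, so the 6 flags cannot be set against that rate. Sets of more than 10 plates, such as the 13 of unselected GABAergic-like nuclei, were not examined. In NeuN-selected thalamic glutamatergic-like nuclei, plate X102816NP1 had 44.8 TPM of Hcn2, next to 19.8 TPM on the following plate, and 1 nucleus at 503.5 TPM contributed most of it. In unselected thalamic glutamatergic-like nuclei, plate X012116_TRNp5 had 160 TPM of Kcnn3, found in 7 of 7 nuclei, next to 60.2 TPM, and plate trn_10 had 48 TPM of Hcn3, found in 3 of 5 nuclei, next to 12.9 TPM. In hippocampal GABAergic-like nuclei, plate X061616p4 had 0.611 TPM of Kcnn3 and 0.657 TPM of Hcn4, each from 1 of 12 nuclei. In hippocampal cortical glutamatergic-like nuclei, plate X041317p1 had 0.375 TPM of Hcn4, from 1 of 23 nuclei. The last 3 are single detections on plates of which the others were at or near 0.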

How the results depend on the processing

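In TRN GABAergic-like against thalamic glutamatergic-like nuclei, Kcnn2, Kcnn3 and Hcn4 stayed past 2-fold in 10 of 10 alternatives, with ranges of 1.93 to 3.16, -4.70 to -2.63 and -4.31 to -1.23. Between Spp1-only and Ecel1-only nuclei, Kcnn1 passed in 9 of 10 alternatives, Kcnn3 in 8 and Hcn4 in 7, and between TRN and GFP-sorted nuclei Kcnn2 passed in 7 of 7 and Kcnn1 in 4. With a pseudocount of 10 TPM the count of members called fell to 0 between Spp1-only and Ecel1-only nuclei and to 0 in NeuN-selected against unselected nuclei. It fell to 1 between TRN and GFP-sorted nuclei and to 1 between Spp1-only and Ecel1-only Patch-seq samples. Among the alternatives, all genes were counted only without a detection filter. Whether the other changes in count are particular to the members was therefore not tested. As a difference of mean log2 values, 1 member was called between TRN and GFP-sorted nuclei and 0 between the sorts. Plate means gave 0 between the sorts and 1 (Hcn3) in Patch-seq against nuclei, marker gates 0 between the sorts, and a pseudocount of 0.1 TPM 1 (Kcnn3) in Patch-seq. Leaving out 1 plate or batch gave 3 to 3 members between the neuron classes, 2 to 4 between Spp1-only and Ecel1-only nuclei, 2 to 2 between TRN and GFP-sorted nuclei over the 33 plates outside striatum, 1 to 2 between the sorts, 0 to 1 in Patch-seq against nuclei and 2 to 3 within Patch-seq. Without the single striatal plate 2 members were called as well, with Kcnn1 lost (0.86) and Kcnn3 gained (1.78). In Patch-seq against nuclei the added call was Kcnn3, at -1.02 to -1.39 without any 1 of 5 NeuN-selected plates or the batch of 7. Without a detection filter the genes at least 2-fold apart numbered 3572 in place of 2168 between the neuron classes, 2804 in place of 1420 between Spp1-only and Ecel1-only nuclei, 4495 in place of 2593 between TRN and GFP-sorted nuclei and 2308 in place of 6.93% of 12339 between the sorts. No called member changed sign in any alternative. The cause of these changes was not tested. No paired analysis was possible because the labels name no animal and give no replicate number, and values within plates stand in its place. The striatal, somatosensory and M2 groups have 1 to 3 plates, so their spread is barely measured, and for members found in few nuclei a mean rests on a handful of values.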
